A study of Homo sapiens with 13 samples.

Results

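The integrated STARR-seq library of MEC1 cells was described by setting the mRNA of each barcode against its genomic DNA (gDNA), with the share of barcodes that gave mRNA kept apart from the mRNA/gDNA level of those that did. MEC1 is an established B-cell line of chronic lymphocytic leukaemia. The members were all barcodes whose construct, a designed array in one flanking context, held at least 3 barcodes. This rule kept 16162 of the 16189 listed barcodes and 513 of the 530 constructs, read in 6 of the 13 samples of the series. The other 27 barcodes, in 17 constructs, fell below the minimum.

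The cells carried a Cre recombinase and a landing pad with GFP under a CMV promoter between loxP and lox2272 sites. Before transfection they were held for 5 days in 5 µg/ml blasticidin, and 8 sets of cells then received 30 µg of the 5 bp spacer plasmid library each. GFP-negative cells were sorted after about 10 to 12 days and grown for another 6 to 7 days. RNA and gDNA were extracted jointly in triplicate, giving an mRNA group of 3 samples (24 µg of RNA reverse transcribed in each) and a gDNA group of 3 samples that share the line, the landing pad and the sort. Since the labels do not state that the 3 extractions were of separate cultures, every p-value below measures the spread among extractions alone, and that spread can be technical. Because each sample is a bulk extract, fewer cells expressing a barcode and less RNA per cell cannot be told apart.

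In STARR-seq the candidate enhancer lies inside the reporter transcript, so an active array is read as its own RNA. On a plasmid each array is present in many copies per cell, whereas cassette exchange puts arrays into one defined chromosomal site, where the surrounding chromatin acts on the reporter. The 8 motif names of the library stand for factors with known roles in B cells or in chromatin. IRF factors and PU1 bind composite sites in B-cell enhancers, NFKB carries signals from the B-cell receptor and Toll-like receptors, FOXO factors are held out of the nucleus by AKT, MEF2 and MYC drive activation and growth genes, CTCF anchors chromatin loops and insulators, and RUNX3 is a Runt-domain factor that can activate or repress.

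The constructs fell into 3 classes by their syntax name. The rd class held 123 barcodes in 3 constructs, 1 per flanking context, whose names carry none of the 8 motifs, and it served as the reference. The 1 motif class, with 1 to 5 copies of a single motif, held 3294 barcodes in 105 constructs. The mixed class, with 2 different motifs in arrays of 2 to 5, held 12745 barcodes in 405 constructs. A construct had a median of 29 barcodes and a range of 3 to 127.

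Each barcode is a random 12 bp tag, and barcodes are the unit in which mRNA was scored as present or at 0. The 6 shown here are, for each class, the barcode with the highest mean mRNA and the barcode with the highest mean gDNA among those at 0 mRNA in all 3 replicates. They show how far apart barcodes of one class lay.

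rd_2, highest mRNA: atgattacgcaa

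rd_3, at 0 mRNA: attcctattggc

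MYC_MYC_MYC_3, highest mRNA: tgacaagcgcag

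FOXO_FOXO_FOXO_FOXO_1, at 0 mRNA: gagtgcgccatc

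IRF_PU1_2, highest mRNA: gcaacaataata

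FOXO_NFKB_FOXO_NFKB_1, at 0 mRNA: cacggtacagaa

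In construct names the last number is the flanking context. The rd_2 barcode was read at 1328, 2020 and 853 RPM (reads scaled to the library total, as deposited) in mRNA of replicates 1, 2 and 3, against 25.5, 45.9 and 69.5 RPM in gDNA. The rd_3 barcode was at 0 in all 3 mRNA samples with 132, 140 and 103 RPM in gDNA. A reference barcode could thus be far above its gDNA, while another with more gDNA gave none.

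The barcode of MYC_MYC_MYC_3 reached 68400, 69292 and 74273 RPM in mRNA at 307, 217 and 257 RPM in gDNA. That of IRF_PU1_2 reached 149274, 175310 and 122120 RPM in mRNA at 165, 243 and 144 RPM in gDNA. These were the 2 most abundant mRNA barcodes of the library, and together they held 37.9%, 42.2% and 35.0% of the listed mRNA RPM, against 0.378%, 0.284% and 0.298% for the top 2 barcodes in gDNA. Barcodes at 0 mRNA also occurred at high gDNA. The FOXO_FOXO_FOXO_FOXO_1 barcode was at 0 mRNA with 443, 226 and 332 RPM in gDNA, and the FOXO_NFKB_FOXO_NFKB_1 barcode at 0 mRNA with 1173, 843 and 905 RPM.

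The listed barcodes held 48.8% to 50.6% of all gDNA RPM and 56.1% to 57.9% of all mRNA RPM of their libraries. All values were whole multiples of 1 step per sample, within a tolerance of 0.01 step. If 1 step were 1 read, the libraries would hold between 8085617 and 12214382 reads, which the files do not state. The median positive mRNA value was 50.8, 40.9 and 63.8 RPM in replicates 1, 2 and 3, or 428, 500 and 629 steps. Only 4.31%, 4.89% and 5.27% of the positive values lay under 10 RPM, so a barcode was mostly either at 0 or far above the smallest value. PCR reads without molecular identifiers are not independent molecules, and the intervals below, which count barcodes, cover counting error only.

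The share of barcodes with mRNA was about 2 times higher in both motif classes than in rd. In rd it was 7.32%, 13.0% and 8.13% in replicates 1, 2 and 3 (9, 16 and 10 barcodes), with exact 95% intervals (Clopper-Pearson) of 3.40% to 13.4%, 7.62% to 20.3% and 3.97% to 14.4%. In the 1 motif class it was 18.7%, 22.2% and 16.1%, with intervals of 17.4% to 20.0%, 20.8% to 23.7% and 14.8% to 17.4%. In the mixed class it was 19.4%, 22.6% and 17.6%, with intervals of 18.7% to 20.1%, 21.9% to 23.3% and 16.9% to 18.2%. In each replicate the rd interval ended below those of both motif classes. These intervals take barcodes as independent, although the rd barcodes lay in 3 constructs with mean shares from 5.07% to 14.0%. They are therefore too narrow as a measure of the difference between classes.

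The means were 9.49% ± 3.08 (SD, n = 3) for rd, 18.98% ± 3.09 for 1 motif and 19.86% ± 2.55 for mixed. Taken within replicates, the 1 motif class was above rd by 9.50 ± 1.73 percentage points and the mixed class by 10.4 ± 1.5, each higher in 3 of 3 replicates. The exact two-sided sign-flip test over the replicates gave p = 0.25 for both, which is the smallest p that 3 replicates allow. Replicate 2 had the highest share in every class, so the spread within a class was mostly shared between classes. The mixed and 1 motif classes lay close together, the mixed class being higher by 0.875 ± 0.573 percentage points in 3 of 3 replicates.

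Counting a barcode as soon as any of the 3 mRNA samples held it, the share was 19.5% in rd (95% interval 12.9% to 27.6%), 33.9% in 1 motif (32.3% to 35.6%) and 37.4% in mixed (36.6% to 38.3%). Here the rd interval ended below both others, again with barcodes taken as independent. Barcodes with mRNA in all 3 replicates made up 3.25% of rd (4 barcodes, 95% interval 0.893% to 8.12%), 7.86% of 1 motif (6.97% to 8.83%) and 6.48% of mixed (6.06% to 6.92%). For these the rd interval holds the shares of both motif classes, so a difference was not detectable at this number of rd barcodes.

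The level among barcodes with mRNA did not separate the classes. The median log2(mRNA/gDNA) of positive barcodes in rd was 1.06, 0.72 and 2.06 in replicates 1, 2 and 3, a mean of 1.28 ± 0.70 (SD, n = 3). In the 1 motif class it was 1.26, 0.82 and 1.26, a mean of 1.11 ± 0.26. In the mixed class it was 1.05, 0.70 and 1.29, a mean of 1.01 ± 0.30. The rd value ranged over more than the motif classes did, and it rests on 9, 16 and 10 barcodes.

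Relative to rd in the same replicate the level was -0.17 ± 0.55 on the log2 scale for 1 motif, higher in 2 of 3 replicates, and -0.27 ± 0.43 for mixed, higher in 0 of 3. Both differences were smaller than their spread over replicates. Their sign turned when the rd construct of context 2 was left out of the reference, to 0.49 for 1 motif and 0.39 for mixed, and for 1 motif also without replicate 3, to 0.15. The mRNA of positive barcodes itself had medians of 56.1, 42.2 and 71.5 RPM in rd, 56.1, 43.1 and 63.6 RPM in 1 motif, and 49.4, 40.2 and 63.6 RPM in mixed.

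The sum over all barcodes mixed share and level and was set by few barcodes. The log2 ratio of summed mRNA to summed gDNA was -0.77, -0.18 and -1.01 in rd, and had means of 0.49 ± 0.0086 in 1 motif and 0.12 ± 0.06 in mixed. In the 1 motif class the context 3 constructs, which hold the MYC_MYC_MYC_3 barcode shown above, had a sum ratio of 1.27 ± 0.03, and 74.8% of their mRNA was from that barcode. Context 1 and context 2 constructs of this class were at -0.43 ± 0.04 and -0.20 ± 0.08.

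The 3 rd constructs differed from each other. With mRNA were 10.3% ± 4.44 (SD, n = 3) of the 39 barcodes of rd_1, 14.0% ± 4.02 of the 38 of rd_2 and 5.07% ± 1.26 of the 46 of rd_3. Their log2 sum ratios were -1.0 ± 0.23, 0.75 ± 0.49 and -3.78 ± 0.17. The single rd_2 barcode printed above supplied 84.0% of the mRNA of rd_2 and 63.1% of the mRNA of all rd barcodes. Without it, the rd_2 sum ratio was -3.27, -1.18 and -1.44 in the 3 replicates, below 0 in each.

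By context, without matching of arrays and with no test between contexts, the shares in the motif classes were as follows. Mixed arrays had mRNA for 23.4% ± 2.95 of barcodes in context 1, 18.3% ± 2.81 in context 2 and 18.5% ± 2.0 in context 3. Arrays of 1 motif had 20.4% ± 3.09, 19.5% ± 3.03 and 17.3% ± 3.24, which differ by about their SD or less. Every one of these 6 values was above the rd class pooled over contexts, by 7.85 to 13.9 percentage points, in 3 of 3 replicates. The rd constructs of contexts 1, 2 and 3 were at 10.3% ± 4.44, 14.0% ± 4.02 and 5.07% ± 1.26. Taken as mean ± SD, both motif classes lay clear of the rd construct of their own context in contexts 1 and 3. In context 2 both overlapped with rd_2, so an excess over rd is not shown within that context. Differences from the rd construct of the same context were not tested.

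Barcodes with more gDNA had mRNA more often and at a lower level per gDNA. In 5 equal groups of barcodes by mean gDNA, from lowest to highest, mRNA was present for 12.0%, 14.3%, 16.8%, 22.1% and 32.8% of all barcodes. The median level among positives over the same 5 groups was 2.33, 1.72, 1.21, 0.88 and 0.13 on the log2 scale. Among positive barcodes, log2 mRNA and log2 gDNA correlated at r = 0.24, 0.21 and 0.22 (3099, 3628 and 2777 barcodes of 1 library each), and the level, which has gDNA as its denominator, correlated with gDNA at r = -0.45, -0.47 and -0.41. The mRNA of positive barcodes thus varied little with their gDNA.

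The classes had similar gDNA, at medians of 19.7 RPM in rd, 22.8 in 1 motif and 22.0 in mixed. With equal weight given to each of the 5 gDNA groups, an alternative chosen after seeing the data, the shares were 9.59% in rd, 18.6% in 1 motif and 20.0% in mixed. The differences from rd were then 9.05 ± 1.5 and 10.4 ± 1.27 percentage points. The excess over rd remained about as large as without the weighting.

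Presence of mRNA was only partly shared between replicates. Replicates 1 and 2 had 1710 positive barcodes in common, 55.2% of those of replicate 1 and 47.1% of those of replicate 2. For replicates 1 and 3 the 1398 shared barcodes were 45.1% and 50.3%, and for replicates 2 and 3 the 1575 shared barcodes were 43.4% and 56.7%. Of all members, 10252 (63.4%) had mRNA in no replicate, 3405 (21.1%) in 1, 1416 (8.76%) in 2 and 1089 (6.74%) in 3. Barcodes seen more often had more gDNA, at medians of 19.9, 23.9, 27.4 and 40.2 RPM for 0, 1, 2 and 3 replicates, and more mRNA, at medians of 42.2, 48.0 and 89.2 RPM for 1, 2 and 3. A single replicate therefore left unseen many barcodes that another one detected.

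Among arrays of 1 motif, the share differed between motifs over a 10.3-fold range. Arrays of IRF, whose factors bind interferon response elements and partner PU1 in B cells, had mRNA for 58.5%, 65.1% and 51.9% of 289 barcodes (58.5% ± 6.57). NFKB arrays had 43.1%, 51.1% and 37.0% of 362 barcodes (43.7% ± 7.07). PU1 arrays, bound by an ETS-family factor of B and myeloid cells, had 24.1%, 31.0% and 25.9% of 232 barcodes (27.0% ± 3.59). The IRF, NFKB and PU1 shares did not overlap with each other or with any rd replicate.

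The other motifs lay near rd. FOXO arrays had mRNA for 13.8%, 16.2% and 10.1% of 457 barcodes, a mean of 13.3% ± 3.09 and above rd in 3 of 3 replicates by 3.86 ± 2.34 percentage points. MYC was at 10.7% ± 1.56, MEF2 at 10.4% ± 2.93 and CTCF at 9.34% ± 3.35, each on both sides of rd in different replicates. RUNX3 arrays had the lowest share, 5.14%, 7.02% and 4.79% of 584 barcodes (5.65% ± 1.20), with a difference from rd of -3.83 ± 1.95 percentage points, below it in 3 of 3 replicates. In all, 4 of 8 motifs were above rd in every replicate and 1 of 8 was below. The place of FOXO turned when only barcodes with mRNA in all 3 replicates were counted, to -0.407 percentage points against rd.

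The order of motifs by level was partly the same. IRF arrays had a median log2(mRNA/gDNA) among positives of 1.95, 1.84 and 1.80, and NFKB arrays of 1.55, 0.97 and 1.39. CTCF followed at 0.83 ± 0.91, RUNX3 at 0.68 ± 0.58, MYC at 0.67 ± 0.52, PU1 at 0.67 ± 0.36, FOXO at 0.44 ± 0.18 and MEF2 at -0.29 ± 0.49. Between CTCF and FOXO neighbours in this order were closer than their spread. The level was above rd in every replicate for 0 of 8 motifs and below it in every replicate for 6 of 8. Some of these directions rested on rd_2. Without it the mean difference from rd turned to 0.20 for CTCF, 0.045 for MYC, 0.046 for PU1 and 0.052 for RUNX3, but not for FOXO or MEF2. Across the 8 motifs level and share correlated at r = 0.81, both being read in the same libraries. RUNX3 and PU1, at the same level within their spread, differed in share by 5.65% against 27.0%. The median mRNA of positive IRF barcodes was 77.3, 67.5 and 72.7 RPM, against 56.7, 35.7 and 60.9 RPM for RUNX3.

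More copies of IRF and NFKB went with a higher share and a higher level. For IRF arrays of 1, 2, 3 and 4 copies the share was 37.1%, 63.7%, 65.1% and 76.0%, with levels of 0.73, 1.67, 2.19 and 2.75. At 5 copies only 3 barcodes were listed, all with mRNA in every replicate, at a level of 4.20 ± 0.08. For NFKB arrays of 1 to 5 copies the share was 18.9%, 40.4%, 55.4%, 59.1% and 73.3%, with levels of 0.41, 1.01, 1.42, 1.60 and 2.15. The 15 barcodes of 5 NFKB copies had a median gDNA of 50.6 RPM and the 25 of 4 IRF copies one of 13.5 RPM, against 23.5 RPM and 22.0 RPM for all arrays of these motifs.

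PU1 and RUNX3 ran the other way in share. A single PU1 motif had mRNA for 40.3% ± 1.39 of 72 barcodes, against 22.2% ± 6.74 of 60 for 2 copies, 19.6% ± 3.90 of 90 for 3 and 26.7% ± 5.77 of 10 for 4. The share for 1 copy was above that for 2, 3 or 4 copies in every replicate. For RUNX3 the shares for 1 to 5 copies were 9.79%, 6.23%, 5.65%, 2.36% and 3.23%. MYC, at 11.1%, 15.8%, 9.40%, 9.78% and 7.59%, and FOXO, CTCF and MEF2, between 8.33% and 19.6% at any copy number, showed no order.

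Some sums of these arrays came from single barcodes. The summed log2 ratio of 3 MYC copies was 3.12 ± 0.10, yet 94.7% of its mRNA belonged to 1 barcode and the share of its 280 barcodes with mRNA was 9.40%. For 5 RUNX3 copies the sum ratio was -0.22 ± 0.31, with 97.1% of the mRNA from 1 barcode. Share and sum thus gave these arrays different places in the order.

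The share of mixed arrays differed with the motifs they joined. Those with CTCF had mRNA for 9.47% ± 0.99 of 2825 barcodes, beside 9.49% for rd. Those with NFKB had 28.2% ± 3.41, with IRF 27.3% ± 3.10, with PU1 25.4% ± 3.62, with FOXO 21.4% ± 2.85, with MEF2 20.6% ± 2.87, with MYC 15.7% ± 2.01 and with RUNX3 12.8% ± 1.99. Each of these 7 was above rd in 3 of 3 replicates. The mixed arrays with neither IRF nor NFKB had 13.3% ± 1.85, those with one of them 27.5% ± 3.51 and those that joined IRF to NFKB 29.1% ± 1.97. The last 2 values differ by less than their spread.

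Over the 28 motif pairs the share ran from 7.16% to 40.5%, with a median of 16.4%. NFKB with PU1 had 37.1%, 46.0% and 38.4%, a mean of 40.5% ± 4.78. FOXO with IRF had 40.9%, 43.9% and 36.3%, a mean of 40.4% ± 3.79. MEF2 with NFKB (36.5% ± 6.81), FOXO with NFKB (36.0% ± 4.34) and IRF with PU1 (35.5% ± 5.62) followed, and all 5 overlap in their replicates. FOXO and MEF2, near rd when alone, thus stood among the highest pairs next to IRF or NFKB.

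At the low end stood CTCF with MYC at 7.16% ± 0.37, MYC with RUNX3 at 7.33% ± 1.23, CTCF with MEF2 at 8.06% ± 2.26, MEF2 with RUNX3 at 8.92% ± 1.82 and CTCF with NFKB at 8.93% ± 2.43. CTCF with IRF, named after its value was seen, was at 9.37% ± 0.563. Arrays that joined CTCF to NFKB or IRF were therefore far below the arrays of NFKB or IRF alone, pooled over copy numbers, without overlap of replicates. Copies of NFKB or IRF were not matched in this comparison. The share of a single NFKB or IRF motif, given above, was below the mean of all arrays of that motif. A mean below IRF alone was not particular to CTCF. The highest mean of any pair was 40.5%, against 58.5% for IRF arrays of all copy numbers, again without matching of copies. In all, 19 of 28 pairs were above rd in every replicate and 1 of 28, CTCF with MYC, was below in every replicate.

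The level of pairs spanned 1.17 on the log2 scale. IRF with PU1 was at 1.45 ± 0.33, IRF with MEF2 at 1.42 ± 0.15, FOXO with NFKB at 1.34 ± 0.36, FOXO with IRF at 1.33 ± 0.36 and MEF2 with NFKB at 1.24 ± 0.14. The lowest were MEF2 with RUNX3 at 0.27 ± 0.72, CTCF with NFKB at 0.29 ± 0.71, CTCF with FOXO at 0.36 ± 0.27, CTCF with PU1 at 0.54 ± 0.19 and PU1 with RUNX3 at 0.59 ± 0.59. Share and level correlated across the 28 pairs at r = 0.82, with motifs and libraries in common between the points.

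Longer mixed arrays had higher shares and levels. With 2, 3, 4 and 5 motifs the share was 17.5%, 21.0%, 21.9% and 29.7%, and the level 0.84, 1.08, 1.14 and 1.36. The arrays of 5 motifs held only 127 barcodes, and the motifs were not matched between lengths. In the 1 motif class the share went 17.2%, 19.6%, 21.8%, 15.6% and 14.4% for 1 to 5 motifs, and the level 0.48, 1.00, 1.35, 1.39 and 1.67. There the level was higher with more motifs while the share was not. The motifs were not matched between lengths here either, and within IRF and NFKB arrays the share did rise with copies.

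Single constructs were set against rd by their share in any replicate. Of 446 constructs with at least 10 barcodes, 192 (43.0%) had an exact 95% interval wholly above the rd value of 19.5% and 11 (2.47%) wholly below. The rd value is taken as fixed here, and its own interval is given above. Above rd were 11 of 11 IRF, 10 of 11 NFKB, 8 of 9 PU1, 3 of 12 FOXO, 1 of 8 MEF2, 1 of 15 MYC, 0 of 9 CTCF and 0 of 15 RUNX3 constructs, or 34 of 90 in the 1 motif class. Against the 43.0% over all constructs, the IRF, NFKB and PU1 arrays stood high and the other motifs low. All 5 below rd in this class were RUNX3 constructs. Of the mixed constructs, 158 of 353 were above, among them 17 of 17 FOXO with IRF, 12 of 12 IRF with PU1 and 12 of 12 NFKB with PU1.

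The highest shares of single constructs (at least 20 barcodes) all belonged to arrays with IRF. IRF_IRF_IRF_3 had mRNA for 69.6%, 84.8% and 67.4% of 46 barcodes (73.9% ± 9.48). IRF_MEF2_IRF_3 had 68.2%, 77.3% and 65.9% of 44 barcodes, and IRF_IRF_IRF_1, IRF_FOXO_1 and IRF_FOXO_IRF_1 had means of 70.0%, 63.8% and 63.6%. The lowest all held RUNX3. RUNX3_RUNX3_RUNX3_RUNX3_3 had 0 of 44 barcodes with mRNA in any replicate, which allows a share of up to 6.82% by the limit of 3 barcodes and 8.04% by the exact 95% interval, while RUNX3_IRF_RUNX3_3 (2.02%), RUNX3_CTCF_3 (2.08%), RUNX3_IRF_RUNX3_2 (2.67%) and RUNX3_RUNX3_RUNX3_RUNX3_2 (2.70%) had few. In contexts 2 and 3 an IRF motif flanked by RUNX3 on both sides thus had some of the lowest shares. Of the 12 constructs that joined IRF to RUNX3, 6 had an interval above the rd value and 2 below.

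By level, among 174 constructs with at least 5 positive barcodes in every replicate, the range was -0.63 to 2.71 with a median of 1.03. IRF_IRF_IRF_IRF_3 was at 2.55, 2.06 and 3.52 and IRF_IRF_IRF_3 at 2.91, 2.49 and 2.32. FOXO_RUNX3_FOXO_1 at 2.37 ± 0.93, FOXO_NFKB_FOXO_NFKB_FOXO_2 at 2.35 ± 0.73 and IRF_MEF2_IRF_3 at 2.22 ± 0.33 completed the highest 5. RUNX3_CTCF_RUNX3_2 at -0.63 ± 0.54, FOXO_2 at -0.44 ± 0.89, NFKB_CTCF_NFKB_3 at -0.40 ± 0.54, IRF_MYC_2 at -0.31 ± 1.51 and FOXO_CTCF_FOXO_2 at -0.31 ± 0.59 were lowest. Share and level of these 174 constructs correlated at r = 0.58. The minimum of positives selects on share, since a construct of few barcodes enters only at a high one. This r therefore describes the selected constructs alone.

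The same level, tested per construct against rd with limma (mean log2(mRNA/gDNA) of positives, at least 3 in every replicate, Benjamini-Hochberg adjusted p under 0.05), was higher for 4 of 273 constructs (1.47%) and lower for 41 (15.0%). All 4 were of the 1 motif class: FOXO_1 at 1.56 above rd on the log2 scale, IRF_IRF_IRF_IRF_3 at 1.60, IRF_IRF_IRF_IRF_2 at 1.71 and IRF_IRF_IRF_IRF_IRF_2 at 2.74. The last 2 hold only 4 and 3 barcodes. A construct of 3 barcodes enters this test only with mRNA for all of them in every replicate. The minimum kept 13 of 13 IRF arrays, but 1 of 15 RUNX3, 2 of 11 CTCF and 3 of 10 MEF2 arrays. The same single FOXO motif was called lower in the other contexts, with FOXO_2 at -2.40 and FOXO_3 at -1.88. With at least 5 positives in every replicate limma called 1 higher and 21 lower, and on the median 3 higher and 17 lower. In the mixed class 0 of 219 were higher and 32 lower by limma (1 higher at an unadjusted p under 0.05). Every construct was set against the same rd barcodes, so their errors are shared. The level differences of both motif classes turned sign without rd_2, as given above, and this fit was not run with any rd construct left out. How many of the lower calls depend on rd_2 is therefore not known. The fit also gave every construct the same SE of 0.488, pooled over constructs. A call therefore followed the size of the difference, and a construct's own spread over replicates did not enter it. Without replicate 3 limma called 0 higher and 0 lower of 313, with 46 at an unadjusted p under 0.05. Without replicate 1 it called 1 higher and 21 lower, and without replicate 2 it called 4 higher and 65 lower.

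Summed over barcodes, mRNA was below gDNA for most constructs. With limma on log2(summed RPM + 0.5), 69 of 513 constructs (13.5%) were higher in mRNA and 287 (55.9%) lower, with a median of -1.45. The rd constructs gave -1.0 for rd_1 (adjusted p = 0.00517), 0.75 for rd_2 (adjusted p = 0.0757) and -3.77 for rd_3 (adjusted p = 0.000106). Most of the reference was thus itself below gDNA. RPM values are shares of a library, so the dominant barcodes shown above lower all others in it. Without those 2 barcodes the median was -1.09, with 83 higher and 235 lower, and with each sample centred on its median construct 175 were higher and 83 lower. Without replicate 1 there were 44 higher, and without replicate 2 there were 188 lower.

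Relative to the summed rd barcodes, 74 of 510 constructs (14.5%) rose and 141 (27.6%) fell in the same limma test, with a median of -0.80. In the 1 motif class 21 of 105 rose and 35 fell, and in the mixed class 53 of 405 rose and 106 fell. Of 13 IRF arrays 9 rose and 0 fell, of 15 NFKB arrays 8 rose and 1 fell, and of 15 RUNX3 arrays 1 rose and 12 fell. Of 10 MEF2 arrays 0 rose and 7 fell, and of 11 PU1 arrays 0 rose and 2 fell. These counts of 0 were also 0 at an unadjusted p under 0.05 in limma. FOXO arrays also had 0 of 15 that rose, with 1 higher at an unadjusted p under 0.05 in limma. PU1 arrays had a high share of barcodes with mRNA, yet 0 of 11 rose in sum. With 14.5% of all constructs rising, 0 among so few arrays does not set a motif apart.

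These counts turned on rd_2. With its barcodes left out of the reference 238 constructs rose and 57 fell, with a median of 0.70, and with rd_3 left out 35 rose and 261 fell, with a median of -1.60. Without the barcode of highest mRNA in each construct, rd included, 161 rose and 46 fell. By the share of barcodes with mRNA, both motif classes were above rd with rd_2 or rd_3 left out, by 6.86 to 12.4 percentage points. Without replicate 1, only 5 rose and 23 fell, without replicate 2 there were 83 and 90, and without replicate 3 there were 34 and 116.

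Among constructs with at least 10 barcodes, 4 of the 5 largest sums relative to rd came mostly from single barcodes. IRF_PU1_2 was 8.58 above rd on the log2 scale (SE 0.29, limma adjusted p = 2.11e-05), with 99.7% of its mRNA from the barcode printed above. Its sum ratio was 7.79, 7.97 and 8.03 in the 3 replicates, and 53.3% ± 10.4 of its 20 barcodes had mRNA. Without that barcode, and without the top barcode of every other construct, it was 3.05 above rd. With only the 2 most abundant barcodes of the library removed, an alternative chosen after seeing the data, it was 0.85 above rd (limma adjusted p = 0.126).

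MYC_MYC_MYC_3 was 4.93 above rd (limma adjusted p = 0.000442), with 96.4% of its mRNA from 1 of 127 barcodes and a share of 6.82% ± 0.91, and was 0.15 above rd without the 2 barcodes (limma adjusted p = 0.817). MEF2_IRF_2 was 3.52 above rd with 95.3% from 1 barcode, and RUNX3_PU1_RUNX3_1 3.16 above rd with 95.2%. The latter was 1.39 above rd without the top barcode of each construct (limma adjusted p = 0.0575), and its adjusted p without replicate 1 was 0.0561. IRF_IRF_IRF_IRF_3 differed from these, at 3.08 above rd with 32.1% of its mRNA from its top barcode and 66.7% ± 5.77 of its 10 barcodes positive, though its limma adjusted p without replicate 1 was 0.0694.

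At the other end, again among constructs with at least 10 barcodes, RUNX3_RUNX3_RUNX3_RUNX3_3 and RUNX3_RUNX3_RUNX3_RUNX3_RUNX3_1 were listed at 0 mRNA in all 3 replicates. The gDNA of the former summed to 1006, 960 and 1097 RPM. RUNX3_RUNX3_RUNX3_RUNX3_2 had mRNA of 0.119, 0.0819 and 0.203 RPM, from 1 barcode, at 840, 1000.1 and 1094 RPM in gDNA. FOXO_MYC_FOXO_MYC_FOXO_3 and FOXO_RUNX3_FOXO_RUNX3_1 were the other 2 of the lowest 5 and had mRNA in 1 replicate each. All 5 fell in the limma test, but the size of a fitted fold at or near 0 depends on the added 0.5 RPM and is not given. For FOXO_RUNX3_FOXO_RUNX3_1 the limma adjusted p without replicate 1 was 0.0604.

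Dominance by 1 barcode was common among the other constructs too. The top barcode held a median of 39.9% of its construct's mRNA, and for 189 of 509 constructs with mRNA (37.1%) it held more than 50%. Of the 513 constructs, 450 had mRNA in all 3 replicates and 4 in none. Of the 16189 listed barcodes, 519 had a listed neighbour 1 base away, and 42.8% of these had mRNA in any replicate against 36.6% of all barcodes. Whether such neighbours are copies of 1 tag was not tested.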

How the data were processed

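For the integrated library the authors deposited RPM values per barcode for mRNA and gDNA and whole-number read counts for plasmid DNA, per the file headers. The authors' table lists only barcodes with at least 2 RPM in all 3 gDNA samples, as checked on its values. How barcodes were counted and aligned is not given in the sources used here. Samples were grouped by their titles. The level is log2(mRNA/gDNA) of a barcode with mRNA over 0, with gDNA of the same replicate number. Shares carry exact Clopper-Pearson intervals, and classes were compared by exact sign flips. Constructs were fitted with limma 3.58.1 (R 4.3.3) on log2(summed RPM + 0.5), mRNA against gDNA, unblocked, with Benjamini-Hochberg adjustment over all constructs, and relative to summed rd after subtracting it in each sample. Folds of low sums are understated by the added 0.5. The fits were tested on simulated construct values with independent normal noise. Sums set by 1 barcode and the shared rd reference were not simulated, so the test does not cover them. Other values used Python 3.11.15, numpy 2.4.6, pandas 2.3.3 and scipy 1.17.1.

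Named constructs are all rd constructs, homotypic arrays by motif and copies, the 5 highest and 5 lowest by share (at least 20 barcodes), by level (at least 5 positives in every replicate) and by fit relative to rd (called, at least 10 barcodes), and the 5 highest and lowest pairs. Members and lists were chosen with earlier results of these data known. Plasmid counts and the episomal tables were not used in the comparisons. No array or motif sequence was used here. Same-numbered mRNA and gDNA deviated from their groups with correlations of -0.02, 0.05 and -0.03 over 513 constructs. The fits of summed mRNA against gDNA were therefore not blocked by replicate number. The level still uses gDNA of the same number. With the mean gDNA of the 3 replicates instead, limma called the level of 4 constructs higher and 38 lower of 273. Alternatives changed the replicates, the rule for presence, gDNA and barcode minimums, weighting, the rd reference, summary, denominator, pseudocount, scaling and single barcodes. Equal weight over 5 groups of gDNA and leaving out the 2 top barcodes were chosen after seeing the data.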

Additional observations from a re-analysis of the deposited data

How the results depend on the processing

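The higher share in both motif classes kept its direction under every alternative run. For 1 motif and mixed the difference from rd was 14.5 and 12.2 percentage points as a mean over constructs, 11.5 and 12.4 without the rd construct of context 2, 6.86 and 7.74 without that of context 3, 14.4 and 17.9 for mRNA in any replicate and 4.61 and 3.23 for mRNA in all 3. Leaving out a replicate gave 8.57 to 10.3 and 9.51 to 10.8. FOXO turned to -0.407 for mRNA in all 3 replicates.

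The level relative to rd was not stable. Without rd of context 2 it was 0.49 for 1 motif, and it turned to 0.39 for mixed, 0.20 for CTCF 0.045 for MYC, 0.046 for PU1 and 0.052 for RUNX3. MYC turned to 1.68 with summed values. Leaving out a replicate gave -0.35 to 0.15 for 1 motif and -0.40 to -0.02 for mixed.

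Against gDNA, 30 constructs were higher without each top barcode, and 175 higher and 83 lower after median centring. Leaving out a replicate gave 44 to 47 higher and 188 to 232 lower. Relative to rd, 161 rose and 46 fell without each top barcode, 238 and 57 without rd of context 2, 35 and 261 without that of context 3, and 5 to 83 and 23 to 116 without a replicate. The level per construct was higher for 1 and lower for 21 with at least 5 positives, lower for 17 by the median, and higher for 0 to 4 and lower for 0 to 65 without a replicate.

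With replicate number as a block, 50 were higher and 242 lower against gDNA, and 48 rose and 118 fell relative to rd. The replicate numbers are not shown to pair the samples.

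The level in rd rests on 9, 16 and 10 barcodes, which limits every level relative to rd. The cause of these changes was not tested.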
